A study of Mus musculus with 6 samples.

Results

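The family of miR-130 and miR-301 was followed in mouse bone marrow progenitors that carry a leukaemia fusion gene, with and without LIN28B. Its members were taken by name from the deposited table, and all 6 named strands were listed there, among 1184 miRNAs and 1452 features in all. They are the 4 guide strands mmu-miR-130a-3p, mmu-miR-130b-3p, mmu-miR-301a-3p and mmu-miR-301b-3p, and the 2 opposite strands mmu-miR-130b-5p and mmu-miR-301a-5p, written below without the species prefix. The strands were chosen by name, but the family was selected on its scaled values in the 6 libraries, with the difference between the groups already known. That difference is therefore given as a description, with no p-value; calls of members in the fit across all miRNAs are counted below only beside the share of all miRNAs called.

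Small RNA was sequenced from GMLPs, a progenitor population sorted from bone marrow and cultured for 3 days with DOX (doxycycline, a common switch for inducible transgenes). Mice of genotype MLL-ENL, a fusion gene of acute leukaemia, gave the ME libraries (n = 3), and mice of genotype LIN28B MLL-ENL the L28BME libraries (n = 3). Both groups therefore carry MLL-ENL and both saw DOX, and cells without the fusion gene were not analysed here. The sources used here give neither the promoters of the transgenes, nor the age of the mice, nor whether each library had its own mouse or culture, and the spread between libraries may thus be technical.

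A miRNA is cut from a hairpin whose stem gives a 5p and a 3p strand. One of them, the guide, is kept in an Argonaute protein and pairs through its seed (bases 2 to 8) with messenger RNAs, which are then repressed, while the opposite strand is mostly discarded. In this family the 3p strands are the guides and share a seed, so they can act on largely the same messages, with components of TGF-beta signalling among those reported. miR-130a is known as a miRNA of blood stem cells and immature megakaryocytes. LIN28B is a fetal RNA-binding protein that holds let-7 precursors back from maturation.

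RefSeq (GRCm38.p6) gave mature sequences for 7 of the 8 strands of the family's 4 hairpins. They are shown because the seed, in capitals, decides which members can share targets, and because it separates the guides from the opposite strands.
miR-130a-3p: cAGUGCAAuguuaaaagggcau
miR-130b-3p: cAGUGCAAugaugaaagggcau
miR-301a-3p: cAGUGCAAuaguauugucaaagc
miR-130a-5p: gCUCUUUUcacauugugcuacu
miR-130b-5p: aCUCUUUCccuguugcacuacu
miR-301a-5p: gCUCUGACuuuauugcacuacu
miR-301b-5p: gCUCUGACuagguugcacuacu

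The 3 guides shown have 1 seed, AGUGCAA, and the 4 opposite strands have 3, of which CUCUGAC is common to miR-301a-5p and miR-301b-5p. miR-130a-3p and miR-130b-3p are identical at 20 of 22 positions, the differences being U11A and A13G (miR-130a-3p first, counted from the 5′ end). miR-130a-3p and miR-301a-3p differ at 10 of 22 compared positions, all from position 10 on. Reads of miR-130a-3p and miR-130b-3p could thus be split between them in counting, and their separate values are uncertain to that extent. Of 1679 RefSeq mouse mature miRNAs 7 carry the seed AGUGCAA. The other 4, miR-130c, miR-721, miR-6341 and miR-6389, were not analysed here.

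The hairpins come from 3 loci, and their sequences are shown because neighbours on one transcript and strands of one stem are compared below. Capitals mark the strands that RefSeq annotates.
Mir130a: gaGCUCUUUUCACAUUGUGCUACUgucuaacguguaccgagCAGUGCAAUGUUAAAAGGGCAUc
Mir130b: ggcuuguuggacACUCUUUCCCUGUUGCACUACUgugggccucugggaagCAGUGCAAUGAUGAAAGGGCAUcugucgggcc
Mir301b: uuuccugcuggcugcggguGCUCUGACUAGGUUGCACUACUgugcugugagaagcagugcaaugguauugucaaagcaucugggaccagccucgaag
Mir301: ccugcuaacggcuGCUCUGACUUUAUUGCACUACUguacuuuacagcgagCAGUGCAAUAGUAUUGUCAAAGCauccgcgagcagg

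Mir130b (chr16:17124061-17124142, minus strand) and Mir301b (chr16:17124400-17124496, minus strand) lie 257 bases apart inside an intron of the protein-coding gene 2610318N02Rik, on its strand. Mir301, the hairpin of miR-301a (chr11:87113004-87113089, plus strand), lies in an intron of Ska2, which encodes a protein of the spindle and kinetochore, again on the same strand. Mir130a (chr2:84741115-84741178, minus strand) overlaps no other gene of the annotation, GENCODE M21 on GRCm38, and its nearest neighbour, Gm19426, is 991 bases away. The letters GGAG, the best-known LIN28 motif of let-7 precursors, were searched on the RNA strand of each hairpin. They were in 0 of the 4 family hairpins, in 9 of 12 let-7 and miR-98 hairpins and in 44.5% of 1005 RefSeq mouse hairpins. A match of letters is a description and shows no binding.

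Depth was 4778027 to 5528960 reads in ME and 2745970 to 4332618 in L28BME. Of these reads the let-7 guides, the known targets of LIN28B, made up 26.1% to 27.4% in ME and 3.22% to 3.30% in L28BME. Levels below are the authors' deposited scaled values, a CPM whose library total is multiplied by a scaling factor (0.819 to 0.882 in ME, 1.17 to 1.22 in L28BME). No source used here says whether reads were collapsed to single molecules. Strands of 22 or 23 bases need no correction for length, but fewer cells expressing a miRNA and less of it per cell cannot be told apart in these bulk libraries.

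In L28BME cells the family was higher as a whole and differently composed. The abundant miR-130b-3p was level, while the scarcer guides miR-130a-3p, miR-301a-3p and miR-301b-3p were 2.54-fold, 2.13-fold and 1.58-fold higher. Of the opposite strands miR-301a-5p was 1.51-fold higher, less than its guide, and miR-130b-5p was 1.20-fold lower, although its share of the hairpin's reads overlapped between the groups.

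**Figure D1:**
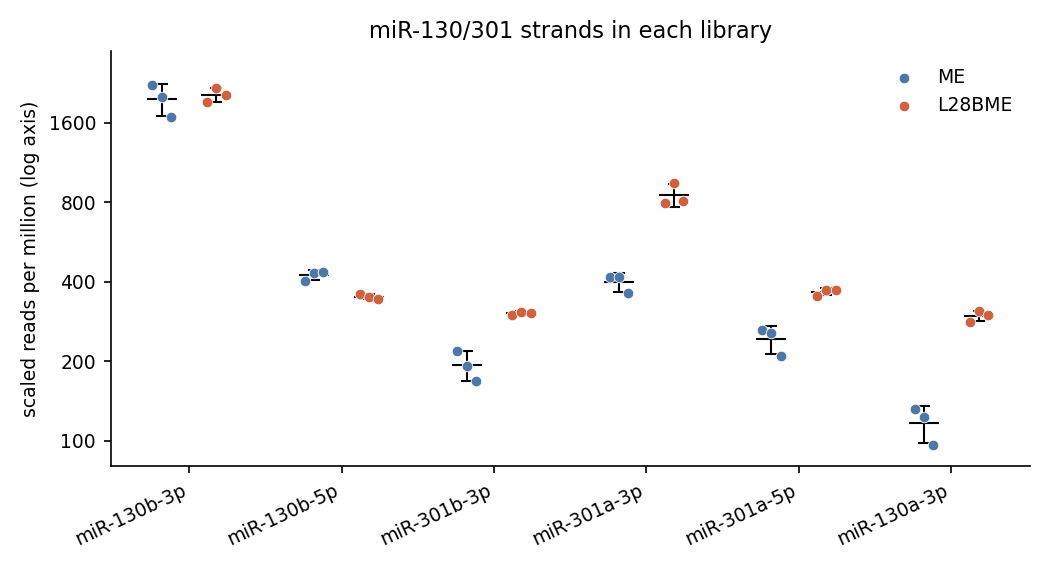
Level of each family strand (vertical log axis, scaled CPM) in the 3 ME and the 3 L28BME libraries; points are libraries, and the black marks show the mean and SD. miR-130a-3p runs from 96.1 to 131 in ME and from 282 to 309 in L28BME, whereas the groups of miR-130b-3p overlap.

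miR-130b-3p was the family's main guide in both groups. It had 2220, 2004 and 1677 in the ME libraries and 1927, 2175 and 2039 in the L28BME libraries (libraries 001 to 003 and 004 to 006, in that order here and below). The groups overlapped, and the means, 1967 ± 273 and 2047 ± 124 (SD, n = 3), differed by less than the spread in ME. It ranked number 55 by level among the 387 tested miRNAs in ME and number 47 in L28BME, with 7068 to 9574 and 6530 to 10193 reads per library. let-7 guides that fell below it add to this gain in rank, such as let-7i-5p (mean 83444 in ME, 211 in L28BME).

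miR-130b-5p, the strand opposite to it, was the one lower member. Its values were 403, 432 and 436 in ME and 359, 351 and 346 in L28BME. Every L28BME library lay under every ME library, and the log2 change was -0.27 (SE 0.084). The ME library with the least miR-130b-3p had the most miR-130b-5p.

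miR-301b-3p is cut from the hairpin next to that of miR-130b. It measured 219, 192 and 169 in ME and 300.4, 309 and 305 in L28BME. The L28BME libraries were all higher and lay closer together (SD 4.20 against 24.8), with a log2 change of 0.66 (SE 0.10). Its opposite strand miR-301b-5p, no member of the set but tested with all miRNAs, rose from 73.1 ± 8.45 to 97.6 ± 1.61 (SD, n = 3; log2 change 0.42, SE 0.11, limma adjusted p = 0.00493).

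The neighbours on chromosome 16 therefore differed in their change, which can be read within each library without any scaling. For every 100 reads of miR-130b-3p there were 9.85, 9.56 and 10.1 reads of miR-301b-3p in ME, and 15.6, 14.2 and 15.0 in L28BME. The ranges were apart, at a ratio of 1.52 between the means. Reads of the similar miR-301a-3p counted as miR-301b-3p would add to these values, and their part was not tested. The opposite strands gave 17.3 ± 2.26 reads of miR-301b-5p per 100 of miR-130b-5p in ME and 27.8 ± 0.991 in L28BME (SD, n = 3), a ratio of 1.61.

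miR-301a-3p, from the Ska2 intron, was the second guide by level. Its values were 419, 418 and 361 in ME and 795, 949 and 812 in L28BME. The lowest L28BME library was thus well above the highest ME library, with a log2 change of 1.09 (SE 0.10). The strand moved from number 98 to number 71 by level, in part because let-7 guides fell below it. miR-301a-5p from the other side of the stem measured 264, 255 and 210 in ME and 354, 372 and 374 in L28BME, also without overlap and with a log2 change of 0.60 (SE 0.10).

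miR-130a-3p was the scarcest guide in ME and had the largest change of the family. It measured 131, 123 and 96.1 in ME and 282, 309 and 300.4 in L28BME, from 405 to 567 and 962 to 1494 reads per library. The groups were far apart, with a log2 change of 1.35 (SE 0.11), number 6 from the top among the 387 tested miRNAs. The opposite strand miR-130a-5p was close to the detection floor, with 14 reads over the 3 ME libraries and 23 over the 3 L28BME libraries, and was not tested.

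The order of the levels changed with these differences. In ME it ran miR-130b-3p, miR-130b-5p, miR-301a-3p, miR-301a-5p, miR-301b-3p and miR-130a-3p, and the libraries of miR-130b-5p and miR-301a-3p overlapped, as did those of miR-301a-5p and miR-301b-3p. In L28BME miR-301a-3p came second, at 2.32 times the level of miR-301a-5p. There the libraries of miR-301a-5p overlapped with those of miR-130b-5p, and those of miR-301b-3p with those of miR-130a-3p.

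All 6 strands passed the filter on low values in the ME libraries alone, so none entered through its high group. In the fit across 387 miRNAs 4 members were past the threshold and higher, where 24.0% of all tested miRNAs were, and 1 was past it and lower, where 32.0% were. The same 4 and 1 had groups that did not overlap, against 27.9% and 33.6% of all tested miRNAs. The median log2 change was 0.63 over the members and -0.014 over all tested miRNAs. Since the family was picked for this contrast, nothing is read from these shares. miR-130b-5p was not past the threshold without ME library 002, L28BME library 005 or L28BME library 006 (log2 changes between -0.30 and -0.24 over all libraries left out in turn), nor with the library total without let-7 (-0.17). Scaled by plain library size it was past the threshold in the other direction (0.23), and all 6 strands were then called higher. In the authors' deposited table neither miR-130b-5p nor miR-130b-3p was under the FDR threshold. The 4 higher members were, as were 6.61% of all 1452 features in that direction, a base without the filter used here.

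Summed over the 4 guides, the family's seed was carried by 2988, 2737 and 2303 scaled CPM in ME and by 3305, 3742 and 3457 in L28BME. The groups did not overlap, and the L28BME mean was 1.31 times the ME mean. As a share of all reads the 4 guides took 0.225% ± 0.0217 in ME against 0.416% ± 0.0216 in L28BME (SD, n = 3), and of reads outside the let-7 guides 0.306% ± 0.0269 and 0.430% ± 0.0222. The first pair of shares includes the room left by the let-7 reads.

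**Figure D2:**
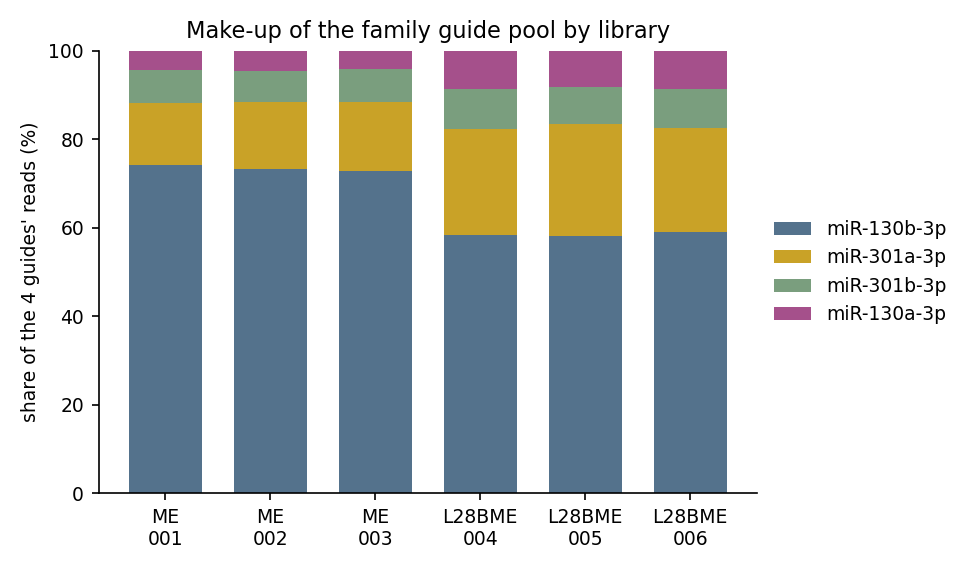
Reads of the 4 guides as a share of their sum (vertical axis, percent) in each library, 1 bar per library. miR-130b-3p fills 72.8% to 74.3% of the bar in ME and 58.1% to 59.0% in L28BME.

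Within this pool the make-up differed between the groups and varied little within them. miR-130b-3p took 73.4% ± 0.765 of the guides' reads in ME, against 58.5% ± 0.455 in L28BME (SD, n = 3). miR-301a-3p took 14.99% ± 0.879 in ME, and 24.1%, 25.4% and 23.5% in L28BME. miR-130a-3p accounted for 4.40%, 4.50% and 4.17% in ME and for 8.55%, 8.26% and 8.69% in L28BME, a 1.95-fold larger share. miR-301b-3p made up 7.22% ± 0.191 and 8.73% ± 0.430. For each of the 4 guides the 3 ME shares lay apart from the 3 L28BME shares, and since shares of one pool sum to the whole, the smaller share of one and the larger shares of the others are not independent.

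The strands of each stem were also compared within libraries. For miR-301a the 5p strand made up 38.7%, 37.9% and 36.7% of the hairpin's reads in ME and 30.8%, 28.2% and 31.5% in L28BME. The groups did not overlap, so the gain at this hairpin was larger for the guide than for the opposite strand. Pooled over libraries the shares were 37.8% of 8402 reads (exact binomial 95% interval 36.8% to 38.9%) and 30.05% of 15458 reads (29.3% to 30.8%), intervals that cover counting error only. For miR-301b the 5p share was 25.4%, 29.7% and 27.5% in ME and 24.2%, 24.1% and 24.5% in L28BME, again without overlap but with 1 ME library within 1 percentage point of L28BME.

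For miR-130b the shares were 15.4%, 17.7% and 20.6% in ME and 15.7%, 13.9% and 14.5% in L28BME, and the groups overlapped. miR-130a was almost one-sided, with 0.907% of 1544 reads on the 5p strand in ME (exact binomial 95% interval 0.497% to 1.52%) and 0.608% of 3784 reads in L28BME (0.386% to 0.911%), which did not differ detectably at this depth. Among all 92 stems with both strands tested, the share of the scarcer strand was lower in L28BME without overlap in 16.3%, and the median log2 ratio of that share was -0.038. The values for miR-130b, miR-301a and miR-301b were -0.29, -0.32 and -0.18.

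**Figure D3:**
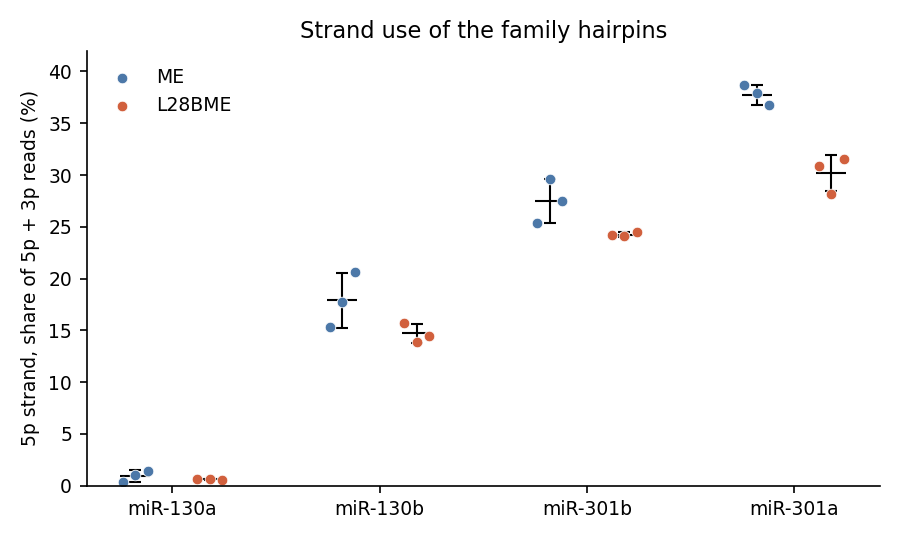
Share of the 5p strand in the 5p and 3p reads of each hairpin (vertical axis, percent), with a point per library and the mean and SD in black. The 3 L28BME libraries lie under the 3 ME libraries for miR-301a and miR-301b, the groups overlap for miR-130b, and miR-130a stays at 1.46% or less.

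Because most let-7 reads are missing from the L28BME libraries, the size of every change depends on how libraries are scaled. With plain library size the median log2 change of all tested miRNAs moved from -0.014 to 0.49, and with the library total without let-7 to 0.094. miR-130a-3p, miR-301a-3p, miR-301a-5p and miR-301b-3p were higher in L28BME under all 4 scalings, with log2 changes of 1.84, 1.59, 1.10 and 1.16 with plain library size. miR-130b-5p changed sign there, at 0.23, and miR-130b-3p, level otherwise, was at 0.56. Set against the median of all tested miRNAs under plain library size, the changes ran from 1.36 for miR-130a-3p to -0.26 for miR-130b-5p. They lie near the deposited ones by construction, since a scaling shifts every strand by about the same amount. None of the scalings gives amounts per cell.

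**Figure D4:**
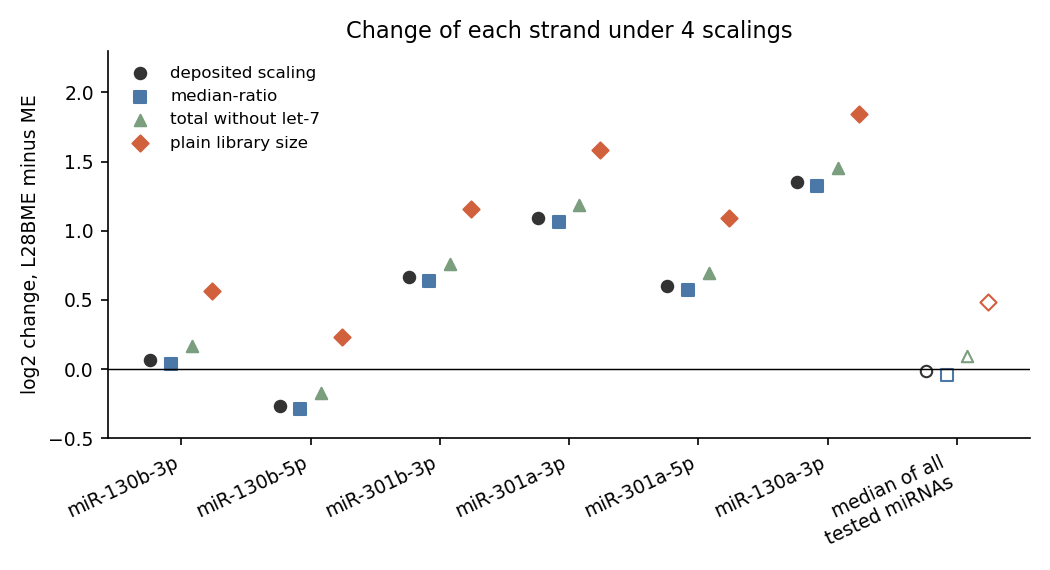
Log2 change of each strand, L28BME minus ME (vertical axis), under 4 scalings of the libraries, 1 symbol each; open symbols at the right give the median of all tested miRNAs. With plain library size every symbol lies higher, miR-130b-5p crosses 0 and the median stands at 0.49.

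The miRNAs with the most similar profiles were found by the distance between centred log2 values over the 6 libraries, leaving out the family. Nearest to miR-130a-3p were miR-199b-5p (distance 0.12), miR-210-3p (0.28) and miR-196a-5p (0.32), against a median of 1.72 over all tested miRNAs. miR-301a-3p had miR-210-3p, miR-6481 and miR-199b-5p nearest (0.29 to 0.36, median over all 1.40), and stood at 0.39 from miR-130a-3p. For miR-301b-3p they were miR-466p-5p, miR-138-5p and miR-5125 (0.19 to 0.23, median over all 0.94). miR-130b-3p was closest to miR-106a-5p (0.066), miR-196b-3p (0.083) and miR-16-2-3p (0.10). It lay 0.74 from miR-301b-3p, the guide encoded beside it, which is farther than its median of 0.62 over all tested miRNAs. Among these neighbours miR-6481, miR-466p-5p and miR-5125 were scarce, with means of 3.59, 3.37 and 3.82 in ME and 7.66, 6.30 and 6.45 in L28BME. Their ME means lie under the filter value of 5, so each needed L28BME libraries to pass it. Changes of such scarce miRNAs are understated on the log2(value + 1) scale, which affects their distances. All the distances come from 6 libraries in 2 groups and mostly reflect the difference between the groups.

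Some abundant miRNAs have seeds shifted by 1 base against that of the family, so that parts of the pairing letters are shared. They are shown by one example of each shift, again with the seed in capitals.
miR-19a-3p: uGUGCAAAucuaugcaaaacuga
miR-148a-3p: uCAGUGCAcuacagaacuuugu

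Of the 5 listed miRNAs with such seeds 2 rose, 2 fell and 1 did not pass, where 24.0% of all tested miRNAs rose and 32.0% fell. miR-19a-3p and miR-19b-3p, of the growth-promoting miR-17-92 cluster, rose from a mean of 1524 to 2177 and of 14234 to 17667 (n = 3; log2 changes 0.52, SE 0.10, and 0.32, SE 0.097; limma adjusted p = 0.000682 and 0.0126). miR-148a-3p fell from 17573 ± 1698 to 13185 ± 909 (log2 change -0.41, adjusted p = 0.00115) and miR-152-3p from 488 ± 44.9 to 396 ± 22.5 (-0.30, adjusted p = 0.0153), while miR-148b-3p was at 0.087 (adjusted p = 0.313). With plain library size miR-148a-3p was at 0.085, not past the threshold, and miR-152-3p at 0.20. Then 4 of the 5 were past the threshold upward. miR-152-3p also missed the threshold without ME library 002 or L28BME library 004 (adjusted p by limma = 0.0817 and 0.0606) and with the library total without let-7 (-0.20, adjusted p = 0.0518), where miR-148b-3p passed it upward (0.19, adjusted p = 0.0233). In ME even miR-152-3p, the scarcest of the 5, was above every family guide but miR-130b-3p.

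Of 15 listed stem and progenitor miRNAs outside the family 14 were tested, and 5 rose, 5 fell and 4 did not pass, with a median log2 change of -0.096. Of all tested miRNAs 24.0% were past the threshold and higher and 32.0% past it and lower. Both strands of miR-126a, which keeps blood stem cells quiescent, rose, miR-126a-3p by 0.48 and miR-126a-5p by 0.68 on the log2 scale (adjusted p by limma = 0.000232 and 3.76e-05). miR-542-3p rose from 392 ± 30.2 to 673 ± 5.10 (SD, n = 3; log2 change 0.78, adjusted p = 3.86e-06), and miR-99b-5p and miR-29b-3p rose by 0.48 and 0.26. miR-125b-5p and miR-99a-5p, partners of let-7 on their transcripts, fell by 0.75 and 1.03, and miR-146b-5p, a brake on inflammatory signalling, fell by 0.90 (adjusted p = 2.72e-05, 1.63e-05 and 6.76e-08). The remaining falls were miR-193b-3p (-0.67) and, at -0.41, miR-181d-5p. miR-29b-3p missed the threshold without ME library 002 or 003 or without L28BME library 005 or 006 (adjusted p = 0.0582 to 0.116). With plain library size 9 were past the threshold upward and 3 downward, miR-181d-5p was at 0.082 and miR-193b-3p at -0.20, neither past it.

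Among the listed cell type markers the stromal and the erythroid sums were higher in L28BME without overlap, and the lymphoid and myeloid sums overlapped. The 6 stromal and endothelial markers analysed summed to 195 to 215 in ME and 372 to 380 in L28BME. That sum is mostly miR-199a-3p, which rose from 190 ± 10.8 to 353 ± 5.18 (SD, n = 3). miR-199b-5p rose from 6.65 to 18.5, and the 4 others were under the filter, none above 3.71. Of these miR-199a-5p was lower in L28BME without overlap (mean 0.61 in ME, 0.079 in L28BME). For miR-10b-5p (2.90 and 1.73), miR-143-3p (1.75 and 2.59) and miR-145a-5p (0.074 and 0.29) the groups overlapped, the first lower and the others higher in L28BME. miR-145a-5p was listed at 0 in 2 ME libraries and 1 L28BME library. The 4 erythroid markers summed to 4.41 to 7.12 in ME and 9.68 to 10.8 in L28BME, all under the filter, and miR-144-3p was at 0 in the 3 ME libraries. For miR-486a-5p the groups overlapped (means 3.77 in ME and 4.13 in L28BME). miR-144-5p (1.53 and 4.35), miR-451a (0.38 and 1.41) and miR-144-3p (0 and 0.40) were higher in L28BME without overlap. The 4 lymphoid markers summed to 3901 to 4467 and 4170 to 4819, more than the 4 family guides together. Of them miR-342-3p rose (log2 change 1.37, adjusted p by limma = 2.78e-09), while miR-150-5p, miR-181a-5p and miR-181b-5p did not pass (-0.17, -0.14 and -0.20), and the median was -0.15. The 6 myeloid markers, led by miR-223-3p, summed to 191729 to 219668 and 194818 to 204582, and were abundant in every library. Their sum is mostly miR-223-3p, miR-142a-3p and miR-21a-5p. Of the 6 markers 3 fell, where 32.0% of all tested miRNAs did: miR-155-5p by 0.54, miR-21a-5p by 0.49 and miR-223-5p by 0.20 on the log2 scale (adjusted p by limma = 2.46e-05, 0.000585 and 0.0458). Scaled by plain library size these were at -0.043, 0.0072 and 0.30, the last past the threshold upward, and miR-223-5p was past the threshold under only 6 of 15 alternatives, that one included. The other myeloid markers, miR-223-3p, miR-142a-3p and miR-142a-5p, did not pass, at -0.0077, 0.094 and 0.21 (adjusted p by limma = 0.953, 0.257 and 0.0519). With plain library size they were at 0.49, 0.59 and 0.70, all past the threshold upward. The part of other cells in the higher miR-130a-3p, a miRNA that endothelium also makes, was not tested.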

How the data were processed

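The QIAseq miRNA kit was used on total RNA and the genome build was GRCm38, per the labels' protocols and the submitters' processing notes. No source used here names the aligner, the counter or how molecular identifiers were handled. The authors deposited 1 table whose scaled signal is headed CPM, per the file headers, with their own log2 fold changes, signed fold scores and p-values. Columns sum to 819079 to 1220362, so the values are not plain CPM. Dividing each column by its smallest non-zero value gave whole reads for 100% of values (tolerance 0.001). No 2 replicates were one library deposited again: reads of each pair differed beyond counting error, at a chi-square of 11.1 to 59.7 per degree of freedom. Columns carry library numbers 001 to 006, which match no replicate number of the labels.

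The filter, 5 or more in 3 or more libraries, left 387 miRNAs. They were tested with limma (trend, two-sided) on log2(value + 1), with Benjamini-Hochberg adjustment over all of them and a threshold of 0.05. On this scale the changes of scarce miRNAs are understated; folds are ratios of group means. edgeR's quasi-likelihood test on the recovered reads called 90 higher and 120 lower, against 93 and 124. The code was tested on simulated data. Members, lists and named miRNAs were chosen with earlier results of these data known: the members, the other strand of each hairpin, every miRNA with the same seed, 2 lists outside the family, and the 3 nearest profiles of each guide. Markers named singly were picked after their values were seen. piRNA features stayed out of the fit. Versions were edgeR 4.0.16, DESeq2 1.42.0 and limma 3.58.1 in R 4.3.3, with matplotlib 3.10.9 for plots.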

Additional observations from a re-analysis of the deposited data

How the results depend on the processing

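The alternatives were 3 other scalings, pseudocounts of 0.5 and 5, no filter or a minimum of 10, edgeR, DESeq2 and each library left out. With plain library size 255 miRNAs were higher and 33 lower (88.5% higher, against 42.9%), and the log2 changes were 1.84 for miR-130a-3p, 0.56 for miR-130b-3p, 0.23 for miR-130b-5p (reversed from -0.27), 1.59 for miR-301a-3p, 1.10 for miR-301a-5p, 1.16 for miR-301b-3p and 0.89 for the summed guides (0.39 as deposited). That scaling counts the room left by let-7 in every other miRNA, and the median of all tested miRNAs moved with it. With the total without let-7 miR-130b-5p was at -0.17, and 136 were higher and 96 lower (58.6% higher). Outside the family miR-148a-3p, miR-152-3p, miR-181d-5p, miR-223-5p and miR-21a-5p changed sign with plain library size (0.085, 0.20, 0.082, 0.30 and 0.0072). Of these only miR-152-3p and miR-223-5p were then past the threshold upward, and the others were no longer past it. With 1 library left out the calls ran from 66 to 93 higher and 94 to 123 lower. The log2 changes then ran from 1.22 to 1.44 for miR-130a-3p, -0.045 to 0.16 for miR-130b-3p, -0.30 to -0.24 for miR-130b-5p, 1.01 to 1.14 for miR-301a-3p, 0.50 to 0.66 for miR-301a-5p and 0.57 to 0.76 for miR-301b-3p, and from 0.29 to 0.47 for the summed guides. Of these 6 strands miR-130b-3p, which is level, was the one whose sign turned with a library left out. The other settings moved each strand by less than 1 SD between replicates. No paired analysis was possible because the columns carry no replicate numbers. Depth limits miR-130a-5p, at 2 to 10 reads per library.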
